A study of Mus musculus with 12 samples.

Results

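Reprogramming of fibroblasts with OCT4, SOX2, KLF4 and MYC opens chromatin of the pluripotent state and closes chromatin of the fibroblast. The regions described here are the strong distal fibroblast peaks that had no peak left after 72 h of factor induction. A peak is a stretch of genome where the transposase of ATAC-seq cut more often than in the surrounding DNA, and its fold is the height over that background. The members were chosen on measured values. They were peaks of the control fibroblast list with a fold of 5 or more and a -log10 q of 5 or more, which overlapped a peak of the Zfp266 knockout fibroblasts, overlapped no peak of either 72 h list by 1 bp, and had a midpoint more than 1 kb from the transcription start of every protein-coding transcript (GENCODE M21, GRCm38). This gave 7683 members of 166486 peaks in the control fibroblast list. Before the 72 h lists were applied there were 20013 strong distal peaks, called candidates here, so 38.4% of candidates were lost (95% Wilson interval 37.7% to 39.1%, which covers counting error only).

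The 12 Omni-ATAC-seq libraries, 3 for each of 4 groups, were made from 50000 cells each. The cells were mouse embryonic fibroblasts (MEFs), labelled as strain 129, from E12.5 embryos. They came from chimeric embryos made with embryonic stem cells of 1 engineered line, which carried Cas9, a Nanog-GFP reporter and a doxycycline-inducible cassette of the 4 factors with mOrange. The MEF groups were not sorted for mOrange, so cells of the host embryos could remain among them. All groups were transduced with a lentivirus for a non-targeting guide RNA (control, genotype wild type) or for a guide RNA against Zfp266 (KO), which encodes a KRAB zinc finger protein. The KO groups are therefore pools of edited cells, not clones, and accessibility cannot show how complete the knockout was. The MEF groups were kept in MEF medium. The reprogramming groups were cultured together with wild type MEFs and, from 24 h after transduction, were given ESC medium containing doxycycline at 300 ng/ml and vitamin C at 10 µg/ml. All groups were sorted and harvested 96 h after transduction, the reprogramming groups as mOrange+ cells after 72 h of induction. The factors, the medium and the sort thus differ together between MEF and 72 h samples and cannot be told apart.

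Distal accessible regions are mostly enhancers, stretches of DNA where transcription factors bind and act on genes that may lie far away. In fibroblasts, AP-1 (dimers of FOS and JUN family proteins), TEAD, RUNX and CEBP factors are known to bind at many of them. CTCF, which holds chromatin loops and is bound in most cell types, occupies another large group of distal sites. Members were therefore searched on both strands for fixed strings of letters. The AP-1 string was TGACTCA, which reads TGAGTCA on the other strand. It is shown in capitals in the following stretches of 160 bases, all from the plus strand of the GRCm38 reference, written 5′ to 3′, and each centred where possible on the AP-1 string nearest to the peak midpoint. The cells were of strain 129, so the letters are those of the reference and not of the cells. The first set comes from the members with the highest fold that hold the string, and each is named after its nearest protein-coding gene.
Isl1 member, chr13:115880961-115881120: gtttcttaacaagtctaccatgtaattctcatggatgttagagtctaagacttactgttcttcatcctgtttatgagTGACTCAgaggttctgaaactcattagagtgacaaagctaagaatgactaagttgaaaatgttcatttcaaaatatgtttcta
Hs3st1 member, chr5:40388004-40388163: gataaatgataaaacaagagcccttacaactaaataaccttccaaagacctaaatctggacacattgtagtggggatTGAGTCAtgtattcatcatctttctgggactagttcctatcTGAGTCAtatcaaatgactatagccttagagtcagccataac
Pcdh20 member, chr14:89248376-89248535: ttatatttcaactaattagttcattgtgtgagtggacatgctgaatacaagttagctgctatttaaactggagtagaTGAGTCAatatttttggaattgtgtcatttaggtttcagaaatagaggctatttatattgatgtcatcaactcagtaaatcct
Arhgap24 member, chr5:102629345-102629504: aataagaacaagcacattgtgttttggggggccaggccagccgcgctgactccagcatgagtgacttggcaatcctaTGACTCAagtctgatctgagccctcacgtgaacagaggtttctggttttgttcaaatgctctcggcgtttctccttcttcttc
Lingo2 member, chr4:36654551-36654710: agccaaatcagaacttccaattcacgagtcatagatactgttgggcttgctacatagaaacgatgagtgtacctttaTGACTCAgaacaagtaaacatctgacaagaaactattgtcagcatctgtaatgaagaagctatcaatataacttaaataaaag

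The second set comes from members near genes of the fibroblast, signalling, pluripotency and endothelial lists, taken in order of fold among those that hold the string. The Col3a1 window carried the TEAD string GGAATG in 2 places beside its AP-1 string, and the Lingo2 window above carried an E-box of TWIST type, CAGATG, in 2 places.
Col3a1 member, chr1:45269573-45269732: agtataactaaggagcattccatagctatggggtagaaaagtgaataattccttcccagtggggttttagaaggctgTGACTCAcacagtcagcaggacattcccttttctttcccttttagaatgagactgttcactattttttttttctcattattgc
Acvr2a member, chr2:47878085-47878244: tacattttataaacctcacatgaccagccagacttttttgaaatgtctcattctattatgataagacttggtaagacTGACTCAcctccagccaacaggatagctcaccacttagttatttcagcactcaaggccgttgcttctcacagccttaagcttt
Klf4 member, chr4:55578904-55579063: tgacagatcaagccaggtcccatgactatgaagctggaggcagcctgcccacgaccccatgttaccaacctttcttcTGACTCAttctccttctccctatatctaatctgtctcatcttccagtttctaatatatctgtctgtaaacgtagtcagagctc
Ncam1 member, chr9:49816654-49816813: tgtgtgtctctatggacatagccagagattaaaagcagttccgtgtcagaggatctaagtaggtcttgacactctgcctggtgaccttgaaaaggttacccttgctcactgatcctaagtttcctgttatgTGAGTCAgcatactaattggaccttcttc
Cdh5 member, chr8:103712647-103712806: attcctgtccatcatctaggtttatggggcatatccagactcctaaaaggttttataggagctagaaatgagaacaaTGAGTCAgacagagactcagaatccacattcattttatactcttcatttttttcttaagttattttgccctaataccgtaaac

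The control fibroblast list held 26746 peaks past both minima. The q minimum removed none of them, since the lowest -log10 q of a member was 25.9. Of these peaks 26730 overlapped a KO fibroblast peak, and 20013 of those were distal. Besides the 7683 members, 11255 candidates (56.2%) had a peak in both 72 h lists and are called kept. A further 545 (2.72%) had one in the 72 h control list only, and 530 (2.65%) in the 72 h KO list only. The lists held 166486 and 161687 peaks in MEF control and KO and 170135 and 163315 at 72 h. Folds were lower at 72 h, where 11.9% and 11.45% of peaks reached 5, against 16.1% and 15.4% in MEF, and the part of this in the loss of peaks was not tested. Each list pools the 3 libraries of its group. Folds therefore carry no spread between replicates, and classes of peaks are described here without a test. A lost peak is one that was not called, and a weak signal below the calling threshold (a q of 0.1) cannot be seen in the lists.

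The labelled cell type was checked at gene promoters, as the highest fold of a peak within 500 bp of a protein-coding start. All 17 mesenchymal markers had a promoter peak in MEF control (median fold 2.97), and 16 had one in 72 h control (median fold 2.92). Col1a1, the main chain of type I collagen, was the one without. Others moved both ways, from 3.83 in MEF control to 1.60 in 72 h control at Thy1 and from 2.73 to 4.65 at S100a4. Of 6 pluripotency markers 4 had a promoter peak in MEF control and 5 in 72 h control. Zfp42 had none and then 8.75, while Esrrb went from 4.36 to 2.74 and Nanog had no promoter peak in any list. Of markers of other cell types in MEF control, 2 of 6 haematopoietic, 4 of 6 endothelial, 5 of 5 neural, 9 of 9 epithelial and 0 of 3 muscle genes had a promoter peak. Their median folds were 2.53 for haematopoietic, 4.72 for endothelial, 2.40 for neural and 3.15 for epithelial genes. Pluripotency markers with a peak had a median of 3.48, so promoter folds did not single out the labelled cell type. The endothelial genes Pecam1 and Kdr stood at 5.58 and 5.59, above every mesenchymal marker, while Tie1, Emcn and the haematopoietic genes Ptprc and Spi1 had none.

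The fold of members ran from 5.00 to 11.1 with a median of 5.76 (quartiles 5.34 and 6.39), close to the median of 5.90 of kept candidates. The 3 members closest above the minimum had folds of 5.00002, 5.00021 and 5.00055. The closest peaks below it that met every other criterion had 4.99999, 4.99971 and 4.99968. The fold on the KO side, which the rule did not limit, had a median of 5.62 in members (quartiles 5.12 and 6.24) and reached 5 in 6189 of them (80.6%). The median log2 ratio of KO over control fold was -0.05 in members and also -0.05 in kept candidates. Members were chosen on the control value, and the median moved to -0.0055 when the minimum was set on the KO peak instead. The members were thus about as high in KO as in control fibroblasts that were cultured in parallel without induction of the factors.

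The share of candidates that was lost fell with fold. It was 41.4% (interval 40.2% to 42.6%) of 6599 candidates with a fold of 5 to 5.5, and 31.6% (29.7% to 33.6%) of 2146 with a fold of 7 to 8. Of 36 candidates with a fold of 10 to 12, 4 were lost. Above 12 it was 0 of 38, which allows a share of up to 7.89% if the limit of a zero is taken as 3 peaks (the Wilson interval ends at 9.18%). Of those 38, 17 were masked as repeats in the reference genome over 90% or more of their length.

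Distance from genes went with loss. Members lay a median of 68479 bp from the nearest protein-coding transcript start, against 28497 bp for kept candidates and 37862 bp for all 150112 distal MEF control peaks. Between 1 and 5 kb from a start, 23.7% of 1025 candidates were lost (21.2% to 26.4%). Between 100 and 200 kb it was 51.8% of 2572 (49.9% to 53.8%), and beyond 500 kb 66.9% of 692 (63.3% to 70.3%). More than 100 kb from every start lay 40.1% of members (39.0% to 41.2%) and 18.2% of kept candidates (17.5% to 18.9%). By midpoint, 4528 members (58.9%) were intergenic, 3008 (39.2%) intronic and 147 (1.91%) exonic. Kept candidates were exonic more often, 4.82% (4.44% to 5.24%). Strong distal peaks gained by 72 h, defined in the next paragraph, lay at a median of 79755 bp, with 44.6% beyond 100 kb and 1.81% exonic. Remoteness from genes was thus not particular to the lost peaks.

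Base composition differed between the classes more than size did. The median length was 902 bp in members and 880 bp in kept candidates. The median GC content was 42.9% in members, 47.0% in kept candidates and 42.2% in the 10324 strong distal peaks gained by 72 h, which were defined by the same minima in the 72 h control list, with a 72 h KO peak and no MEF peak. The median number of CpG per kb was 7.76 in members and 12.54 in kept candidates. Of candidates with a GC content under 35%, 69.3% were lost (63.4% to 74.6%, n = 257). With 45% to 50% it was 31.3% (30.2% to 32.5%, n = 6286), and with 55% or more 4.86% (3.67% to 6.43%, n = 946). Members were not rich in repeats, with a median of 11.98% masked bases against 11.6% in kept and 20.7% in gained peaks.

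**Figure D1:**
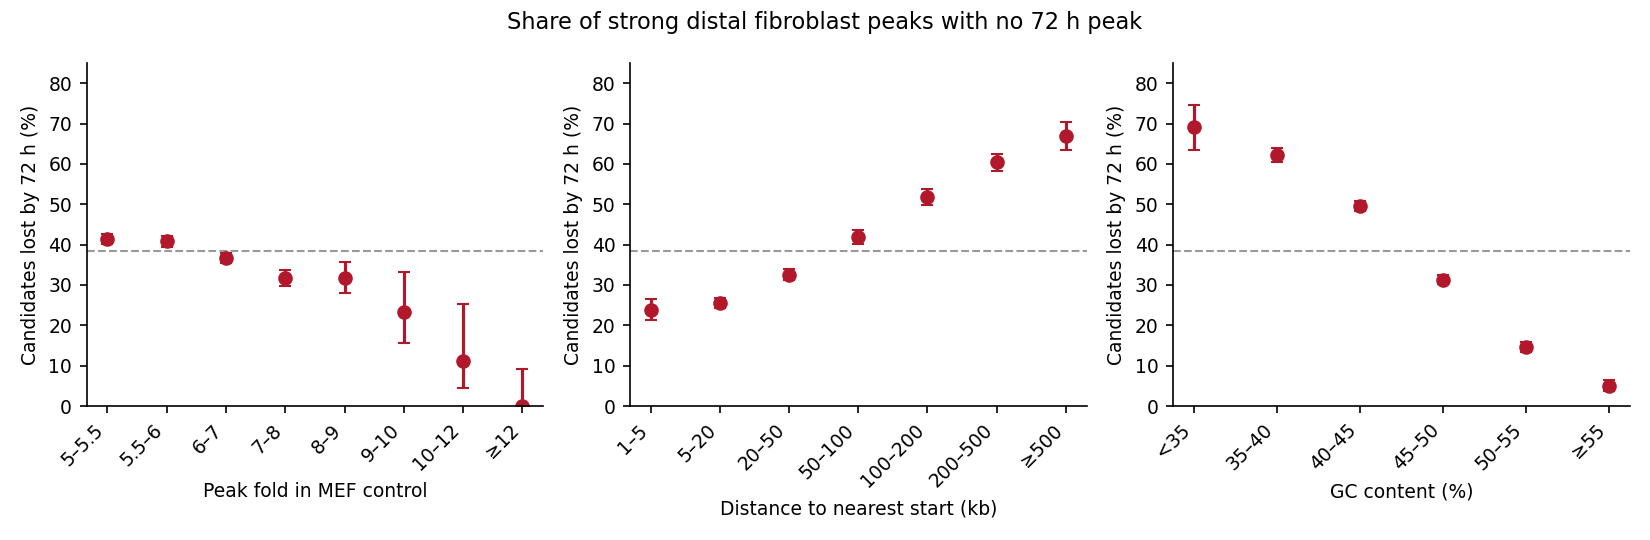
Percentage of candidates with no 72 h peak by peak fold, distance to the nearest protein-coding transcript start and GC content. Points are shares, bars are 95% Wilson intervals and the dashed line is the share of all candidates, 38.4%. The share fell with fold and GC content, from 69.3% to 4.86% along the GC axis, and rose with distance from 23.7% to 66.9%.

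The AP-1 string was found in 4154 members, 54.1% (52.95% to 55.2%). It was in 42.9% of kept candidates (42.0% to 43.8%), in 25.9% of gained peaks (25.1% to 26.8%) and in 37.7% of all distal MEF control peaks. The same letters in reverse order, ACTCAGT, have the same composition, and were in 19.7% of members, 17.0% of kept candidates and 13.9% of gained peaks. More than 1 AP-1 string was less common: 3121 members held 1, 864 held 2, 147 held 3 and 22 held 4 or more. The share of candidates that was lost was 33.8% without the string and 45.1% with 1, but 40.4% with 2 and 34.5% with 3, so that it did not go on rising with the number of strings. Among members with a fold of 5 to 5.5 the string was in 50.6% (48.8% to 52.5%), with 7 to 8 in 61.1% (57.4% to 64.7%) and with 8 to 12 in 69.8% (63.0% to 75.8%). Among kept candidates with these folds it was in 42.6%, 44.6% and 36.0%.

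AP-1 strings gathered near the peak midpoint. Members held 1.71 strings per kb within 50 bp of the midpoint and 0.278 per kb at 450 to 500 bp. Kept candidates held 1.28 and 0.329 per kb at these distances, and gained peaks 0.568 and 0.221. Of members with the string, 52.8% (51.3% to 54.3%) had one within 100 bp of the midpoint, against 47.7% (46.3% to 49.1%) of such kept candidates. In the member near Col3a1 it lay 32 bp from the midpoint, whereas in the highest member, near Isl1, the nearest string lay 296 bp away.

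**Figure D2:**
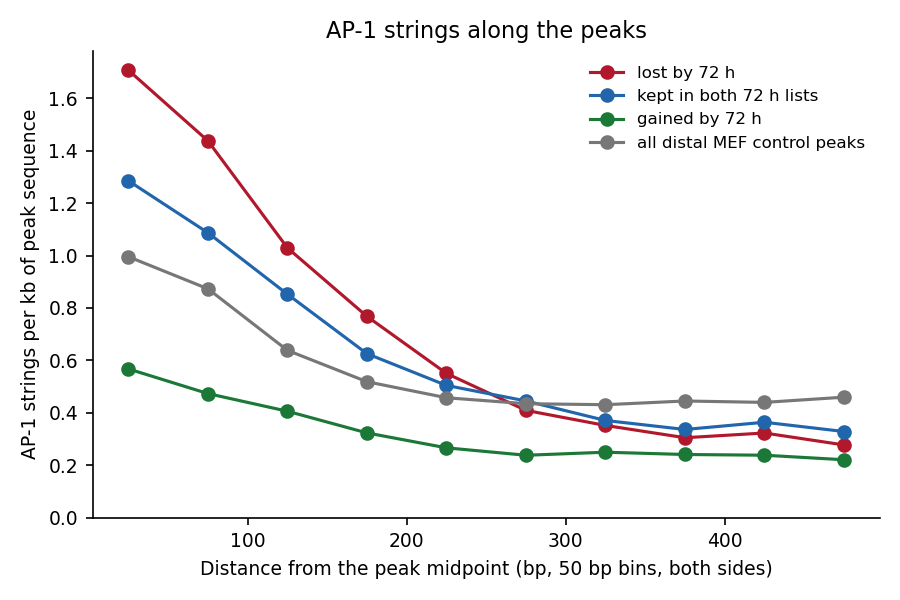
AP-1 strings per kb of peak sequence (both strands) against distance from the peak midpoint in bins of 50 bp, for members, kept candidates, gained peaks and all distal MEF control peaks. Lost peaks start highest, at 1.71 per kb, gained peaks lowest, at 0.568 per kb, and lost and kept peaks meet beyond about 200 bp.

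The higher AP-1 share of members went with their GC content. Between peaks of 40% to 45% GC it was 55.2% in members (53.5% to 56.9%, n = 3324) and 53.2% in kept candidates (51.4% to 54.97%, n = 3010), and these intervals overlap. Between 35% and 40% it was lower in members, 55.9% against 59.1%. It was higher in members from 45% GC on, with 52.0% against 42.3% at 45% to 50% and 49.0% against 33.0% at 50% to 55%. Within 35% to 45% GC the string also rose with fold among kept candidates, from 51.1% at 5 to 5.5 to 60.9% at 7 to 8, beside 52.4% and 61.6% in members. Without peaks that hold a CTCF string the AP-1 share was 54.0% in members and 48.8% in kept candidates.

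The AP-1 share also went with distance and length, over a wider range in kept candidates than in members. Over the distance bins it ran from 52.3% to 59.3% in members and from 36.4% to 65.2% in kept candidates. Between 1 and 5 kb from a start it was 59.3% in members and 36.4% in kept candidates. Between 100 and 200 kb it was 52.3% and 52.5%, and beyond 500 kb 57.7% and 65.2%. Among peaks under 500 bp the shares were 47.8% and 18.3%, among peaks of 900 to 1100 bp 53.2% and 52.7%, and among those of 1500 bp or more 62.1% and 54.5%. The difference was thus small or turned around beyond 100 kb from genes and below 45% GC. The part of each of these properties was not tested.

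Among the strings searched, that of CTCF was the clearest mark of the peaks that stayed. The CTCF string, a match to the central part of its site, was in 316 members (4.11%, 3.69% to 4.58%) and in 2641 kept candidates (23.5%, 22.7% to 24.3%). Of 3060 candidates that held it 10.3% were lost, against 43.5% of the 16953 that did not. Kept candidates held it more often in every GC bin, with 20.1% against 3.70% at 40% to 45% and 23.8% against 13.04% at 55% or more. In the last bin, which had 46 members, the intervals overlap. Gained peaks held it in 4.00%, close to members.

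Strings of other fibroblast factors were in more members than kept candidates. The TEAD string GGAATG, bound by the factors that work with YAP and TAZ, was in 54.3% of members (53.2% to 55.5%) and 46.9% of kept candidates (45.9% to 47.8%). At 40% to 45% GC the shares were 55.4% and 48.2%, and only under 35% GC was it below, with 39.3% and 40.3%. The CEBP string TTGCNNAA was in 43.5% and 34.2%, and in 45.01% and 38.7% at 40% to 45% GC. The RUNX string TGTGGTT was in 28.6% and 23.6%, and in 29.7% and 27.1% at 40% to 45% GC. The E-box CAGATG, of the kind that TWIST factors bind, was in 61.4% and 55.5%, and in 61.9% and 55.4% at that GC content. At 40% to 45% GC the intervals of members and kept candidates lay apart for the TEAD, CEBP and TWIST strings, and overlapped for RUNX as they did for AP-1. The GATA string AGATAA was in 44.6% and 35.9%, but gained peaks held it in 44.3%. At 40% to 45% GC the GATA shares of members and kept candidates were 45.6% and 44.2%, with overlapping intervals. A string was lower in members where it was of the other E-box type, CAGGTG, bound by ZEB and SNAI factors: 28.4% of members, 41.3% of kept candidates and 39.7% of gained peaks. At 40% to 45% GC these shares were 27.6%, 32.2% and 43.7%.

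Letters bound by the reprogramming factors were found in a larger share of gained peaks than of members. The KLF strings GGGCGTGG or GGGTGTGG were in 5.54% of members (5.05% to 6.08%), 13.2% of kept candidates and 16.7% of gained peaks (16.0% to 17.4%), and 21.4% of 1990 candidates that held one were lost. The SOX string CCATTGTT was in 3.68% of members and 7.56% of gained peaks. The OCT string ATTTGCAT was in 6.34% of members (5.82% to 6.91%), more than the 4.80% of kept candidates and less than the 7.70% of gained peaks. At 40% to 45% GC it was in 6.77% of members and 5.58% of kept candidates, with overlapping intervals. At 45% to 50% GC it was lower in members, 4.06% against 4.74%. The OCT string can share letters with the CEBP string. Strings seen in few members were the CRE string TGACGTCA (0.664%), the ETS string CCGGAAGT (0.377%) and the NFI string (0.234%), and the CArG string of SRF was in 5.75% of members and 4.98% of kept candidates. A string is only a match of letters and does not show that a factor was bound.

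**Figure D3:**
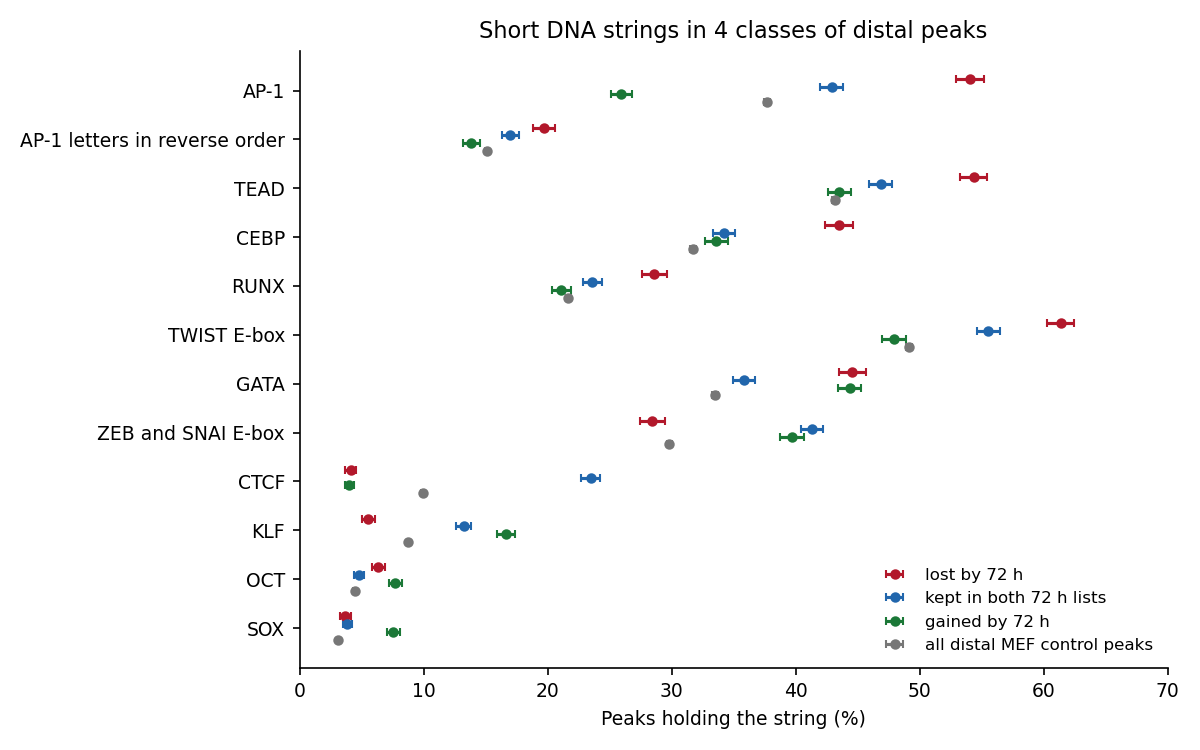
Percentage of peaks that hold each string in members, kept candidates, gained peaks and all distal MEF control peaks, with 95% Wilson intervals. Members stand highest for AP-1 (54.1%), TEAD (54.3%) and CEBP (43.5%), and low for CTCF (4.11%) and KLF (5.54%).

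**Figure D4:**
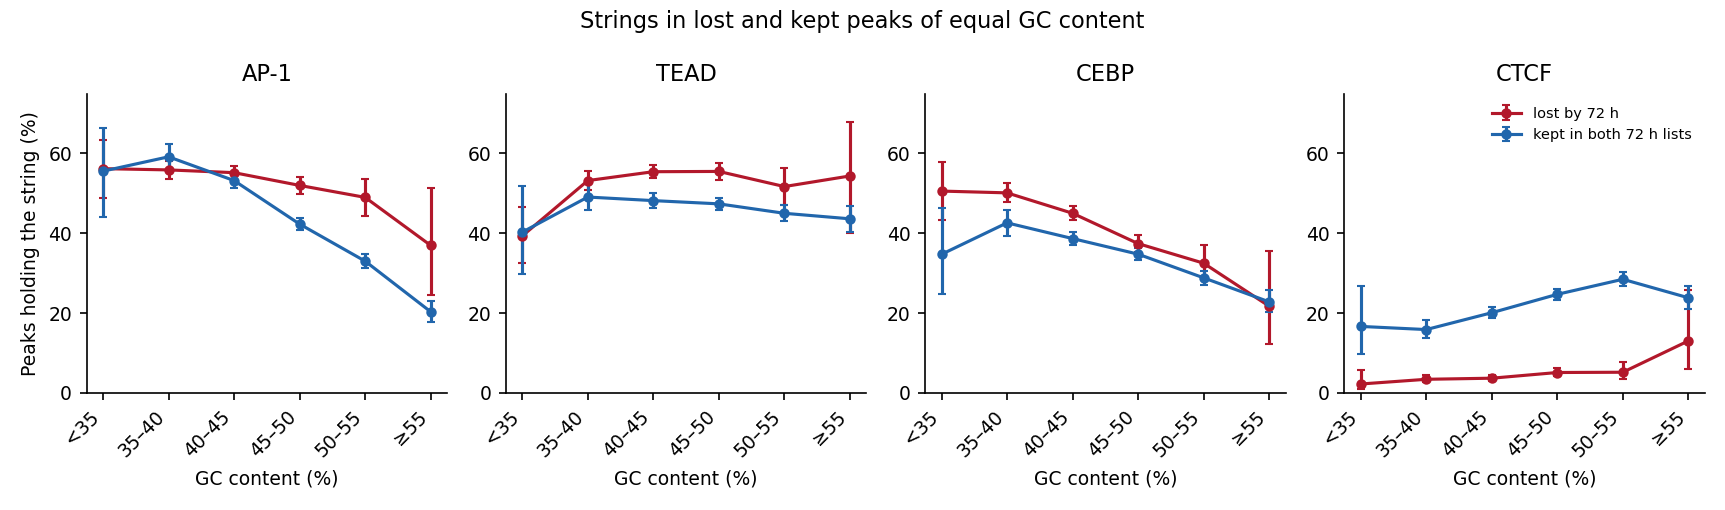
Percentage of members and kept candidates that hold the AP-1, TEAD, CEBP and CTCF strings within bins of GC content, with 95% Wilson intervals. For AP-1 the classes meet below 45% GC. For CTCF they stay apart below 55% GC, with 3.70% and 20.1% at 40% to 45%, and the intervals overlap at 55% or more.

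AP-1 and the other strings were also counted together. Of 5443 candidates with neither an AP-1 nor a TEAD string 28.8% were lost (27.6% to 30.0%). With the TEAD string alone it was 39.2% of 5006, with the AP-1 string alone 42.3% of 4587, and with both 44.5% of 4977 (43.1% to 45.9%). With CEBP in place of TEAD the shares were 29.4%, 41.4%, 41.6% and 46.1%. The shares with both strings were below the sum of the separate increases.

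The 8 highest members lay 13846 to 777294 bp from the nearest protein-coding start. The highest, with a fold of 11.1 in control and 9.74 in KO, was chr13:115880711-115881964, intergenic and 428085 bp from Isl1, a LIM homeobox factor. It held 2 AP-1 strings. A member of 324 bp in an intron of Piezo2, a mechanosensitive ion channel, 13846 bp from its start, had 10.6 in control and 8.35 in KO and no AP-1 string. The member at chr6:71522759-71523384, 20726 bp from Chmp3, had 10.1 and 9.58. A member at chr5:40387526-40388260 had 10.0 in control and 10.3 in KO, and lay 632418 bp from Hs3st1, a heparan sulfate sulfotransferase. One 777294 bp from the protocadherin gene Pcdh20 (chr14:89248266-89249114) had 9.98 and 10.1. The others of the highest 8 lay near Bckdhb (9.88 and 8.33), in an intron of Arhgap24 (9.75 and 8.04) and in an intron of Lingo2 (9.58 and 9.03). Of these 8 members, 5 were intergenic and 3 intronic.

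Members stood together along chromosomes. A run is a row of consecutive candidates that were all lost. The members formed 4065 runs, of which 2328 were of 1 member and 244 of 5 or more, and these 244 held 1599 members (20.8%). When a candidate was lost, the next candidate 5 to 20 kb further on was lost in 49.6% of 1360 cases, against 32.6% of 2269 cases after a candidate that was not lost. At 20 to 100 kb the shares were 46.3% and 31.2%, and beyond 100 kb 46.6% and 35.7%, so that the share after a lost candidate did not fall further from 20 kb on. Neighbouring members are therefore not independent, and the counting intervals given here are too narrow to that extent. The longest run had 18 members on chromosome 13 from 25748511 to 27661045, across the cluster of prolactin family genes. A run of 12 on chromosome 15 (62628956 to 63192299) lay between Myc and Gsdmc. A run of 11 on chromosome 4 (88959688 to 89422496) spanned Mtap, Cdkn2a and Cdkn2b. These runs were chosen after their values were seen.

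The median distance from a member to the nearest 72 h peak was 5558 bp, and 711 members (9.25%) had one within 1 kb. The nearest strong distal gained peak lay at a median of 78934 bp, and the nearest kept candidate at 73753 bp. Only 12 members were more than 100 kb from any 72 h peak. Members were on every chromosome that held more than 3 candidates.

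Each peak was also assigned to the gene with the nearest protein-coding start, which need not be the gene it acts on. Of 21842 such genes, 3979 (18.2%) had at least 1 member and 8605 (39.4%) at least 1 candidate, and 20 had 10 members or more. Flrt2, a transmembrane protein of cell adhesion and axon guidance, had the most, with 17 of its 23 candidates lost and 6 kept. Epha4, an ephrin receptor, lost 15 of 18, and Efnb2, an ephrin ligand, 12 of 15. Cdh11, the cadherin of mesenchymal cells, lost 13 of 17 and had 17 gained peaks. Robo1, a receptor for SLIT proteins, lost 12 of 18 and had 15 gained peaks. N6amt1, a methyltransferase gene, lost 14 of 21, Lrmda 13 of 16, all 13 inside the gene, and Cited2, a cofactor that binds CBP and p300, 12 of 22. No gene with 15 or more candidates lost all of them.

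The gene lists were read against the shares over all protein-coding genes, where 18.2% of genes had a member and 38.4% of candidates were lost. Genes with long stretches of noncoding sequence around them collect more peaks, and the share of candidates lost itself rose with distance from a start and fell with GC content. The lists were not compared at equal distance or GC content, and the part of these properties in their shares was not tested. Among genes of the extracellular matrix, 23 of 35 found had a member (65.7%), and 60 of 114 candidates were lost (52.6%, interval 43.5% to 61.6%). Col3a1, a fibrillar collagen, lost 8 of 9 candidates and kept 0, with a highest fold of 8.52. Tnc, which encodes tenascin C, lost 8 of 14, and Dcn, the proteoglycan decorin, 5 of 8. Among surface proteins and receptors of fibroblasts 38 of 77 candidates were lost (49.4%, 38.5% to 60.3%). Beside Cdh11, these included 5 of 8 at Ncam1 and 5 of 9 at Cdh2, both adhesion proteins.

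Mesenchymal transcription factors had members at 16 of 32 genes (50.0%), and 49 of 103 candidates were lost (47.6%, 38.2% to 57.1%). Zeb2, a repressor of epithelial genes, lost 11 of 19, all outside the gene itself. Tcf4, a partner of TWIST factors, lost 8 of 11, and Gli3, a factor of hedgehog signalling, 5 of 10. At the genes of the AP-1, TEAD, RUNX and CEBP factors 17 of 67 candidates were lost (25.4%, 16.5% to 36.9%), and 9 of 24 genes had a member. Runx1 lost 3 of 9, Runx2 3 of 8 and Jun 3 of 8. These intervals are too narrow where neighbouring candidates were lost together, and a difference of a list from the 38.4% of all candidates was not tested.

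For the TGF-beta pathway 20 of 61 candidates were lost (32.8%, 22.3% to 45.3%), with members at 10 of 30 genes. Acvr2a, an activin receptor, lost 5 of 6, the highest of them 935878 bp from its start, Id2, an inhibitor of basic helix-loop-helix factors, 4 of 7, and Bambi, a decoy receptor, 2 of 3. Contractile and cytoskeletal genes lost 12 of 28 (42.9%), with 4 of 8 at Palld and 2 of 2 at both Myh10 and Myh9, the nonmuscle myosin heavy chains. In the senescence and p53 list 5 of 15 were lost (33.3%), 2 of 4 at Cdkn2b, 1 of 1 at Cdkn2a and 1 of 4 at Ccnd1. The epithelial list had 1 member in 11 candidates, near Cldn3, a tight junction claudin, while Cdh1 had no candidate and the 1 candidate of Epcam was kept. Among pluripotency genes 21 of 44 candidates were lost (47.7%, 33.8% to 62.1%), 6 of 9 at Klf4, 4 of 5 at Klf5 and 4 of 6 at Sox2. Other genes went both ways, with 0 of 4 lost at Nanog, 0 of 2 at Tet1 and 1 of 5 at Tfcp2l1. At Fbxo15 4 of 5 were lost and at Dppa4 1 of 1. These other genes were chosen after their values were seen. Klf4 and Sox2 are themselves among the induced factors. In the haematopoietic and endothelial list 18 of 34 were lost (52.9%, 36.7% to 68.5%), with 6 of 12 at Cdh5, 6 of 10 at Ptprc and 2 of 2 at Emcn. Promoter peaks of endothelial genes stood in the MEF lists too, at 4 of 6 genes against 2 of 6 at 72 h. Haematopoietic genes went the other way, at 2 of 6 in both MEF lists, 4 in 72 h control and 3 in 72 h KO. The part of endothelial or haematopoietic cells in these members was not tested. The interval of the epithelial list ran from 1.62% to 37.7%.

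Counts per library were used only for intervals that the authors listed as changed by the knockout, 480 in MEF and 1608 at 72 h, out of 273256 intervals from merging the 4 lists. Of the 7683 members, 11 (0.143%) lay in a listed MEF interval and were called by edgeR's quasi-likelihood test, all with KO above control (adjusted over all merged intervals), although with TMM factors computed over the listed intervals alone all 11 fell below control, by log2 differences of -0.12 to -0.54. The size factors used otherwise were the authors' own, recovered from their raw and normalised counts. The background was 0.175% of all intervals called in that direction in MEF. At 72 h the figures were 2 members (0.0260%) and a background of 0.557%. Of kept candidates 20 (0.178%) were listed in MEF and 74 (0.657%) at 72 h. The lists were selected on these libraries, so these calls are not independent evidence. In MEF the share of members was near the background and is no result about them. At 72 h the rule had left out every peak that overlaps a 72 h peak, while kept candidates had to have one. The low share of members there was favoured by this choice and is no result about them either. For members outside the listed intervals, counts per library were not analysed here.

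On the authors' scaling the median log2 difference of the 11 listed MEF members, KO over control, was 0.62, against 1.08 over all 480. With TMM factors over the list the 11 ran from -0.54 to -0.12, so the sizes depend on the scaling. Nearly all intervals of the list have KO above control, so factors computed over it alone cannot decide the direction. Their median normalised count over the 6 MEF libraries was 179.6 against 69.3, which the minimum on the MEF control fold favours. In all 13 listed members, every KO library was above every control library of its context. The lists were selected on these libraries, which favours this. KO was above control in 479 of the 480 listed MEF intervals and 1522 of the 1608 at 72 h. The share of listed intervals with such separate libraries was not counted. Of the 13 members, 11 held the AP-1 string, beside 54.1% of all members. The masked share of the 13 had a median of 26.4%, against 11.98% of all members.

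The member in an intron of Asic2, an acid-sensing ion channel gene, lay in chr11:81343689-81344765. Its normalised read counts were 184.0, 191.5 and 170.2 in the MEF control libraries and 285.2, 244.8 and 245.3 in KO. The log2 difference was 0.50 (SE 0.08, edgeR adjusted p = 1.92e-06). Its mean over the 6 reprogramming libraries was 9.11, so it was 24.2 times higher in MEF. The member in an intron of Itpkc, an inositol trisphosphate kinase gene (chr7:27218316-27219245), had 148.8, 127.4 and 138.6 in control and 285.2, 268.1 and 236.3 in KO. The log2 difference was 0.93 (SE 0.09, edgeR adjusted p = 2.55e-20), and the 72 h mean was 30.5. An intergenic member 1039 bp from a start of Fam50b (chr13:34733323-34735409) had 189.1, 158.5 and 196.9 in control and 256.5, 297.6 and 285.7 in KO (log2 difference 0.62, SE 0.08, edgeR adjusted p = 5.21e-11). Its 72 h mean of 74.7 was the highest of the 11, in an interval wider than the peak that also held a 72 h peak.

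The remaining listed MEF members named here gave 158.2 to 171.3 in control and 232.8 to 245.5 in KO at Tango6, 119.5 to 158.5 and 198.9 to 234.4 at the demethylase gene Jmjd1c, 137.4 to 149.5 and 207.1 to 211.4 at Iqsec2, 93.7 to 132.3 and 187.8 to 194.2 at Frmd5, and 157.6 to 179.0 and 216.7 to 284.7 near Fam117a. Control and KO libraries did not overlap at any of them, which the selection of the list on these libraries favours. In MEF the 11 were 2.40 to 24.2 times as high as the mean at 72 h, with a median of 8.29, whereas the 20 listed MEF intervals with a kept candidate had a median ratio of 1.56 and all 480 had 1.51. The counts come from the libraries in which the peaks were called, so this describes the loss in another unit and does not test it. The 72 h means were 7.43 to 74.7 normalised reads in these intervals. For Fam50b and Zmym4, the highest at 74.7 and 58.1, the interval also held a called 72 h peak outside the member, and in the other 9 the mean was 30.5 or less.

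Both members listed at 72 h had AP-1 strings and lay in introns. At Gramd2 (chr9:59687272-59687934) the 72 h control libraries had 54.8, 54.4 and 54.8 and the KO libraries 89.7, 100.9 and 101.6, a log2 difference of 0.82 (SE 0.16, edgeR adjusted p = 0.000115). Its mean over the MEF libraries was 319.5, 4.20 times that at 72 h. At Stxbp5, which encodes the syntaxin-binding protein tomosyn (chr10:9879868-9882306), control had 49.2, 58.97 and 77.0 and KO 130.8, 132.9 and 139.7, a difference of 1.13 (SE 0.15, edgeR adjusted p = 8.25e-11). Its MEF mean was 223.3, 2.28 times that at 72 h, and the interval also held a 72 h peak outside the member. On this scaling the KO libraries at 72 h stood between the 72 h control libraries and the MEF mean in both. The selection of the list and the rule of the members favour this order, so it is no result about them. With TMM factors over the listed intervals the 2 log2 differences were -0.15 and 0.16, and edgeR called 0 of them with these factors (0 at an unadjusted p under 0.05) and 0 without scaling (2 unadjusted), against 2 by DESeq2.

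**Figure D5:**
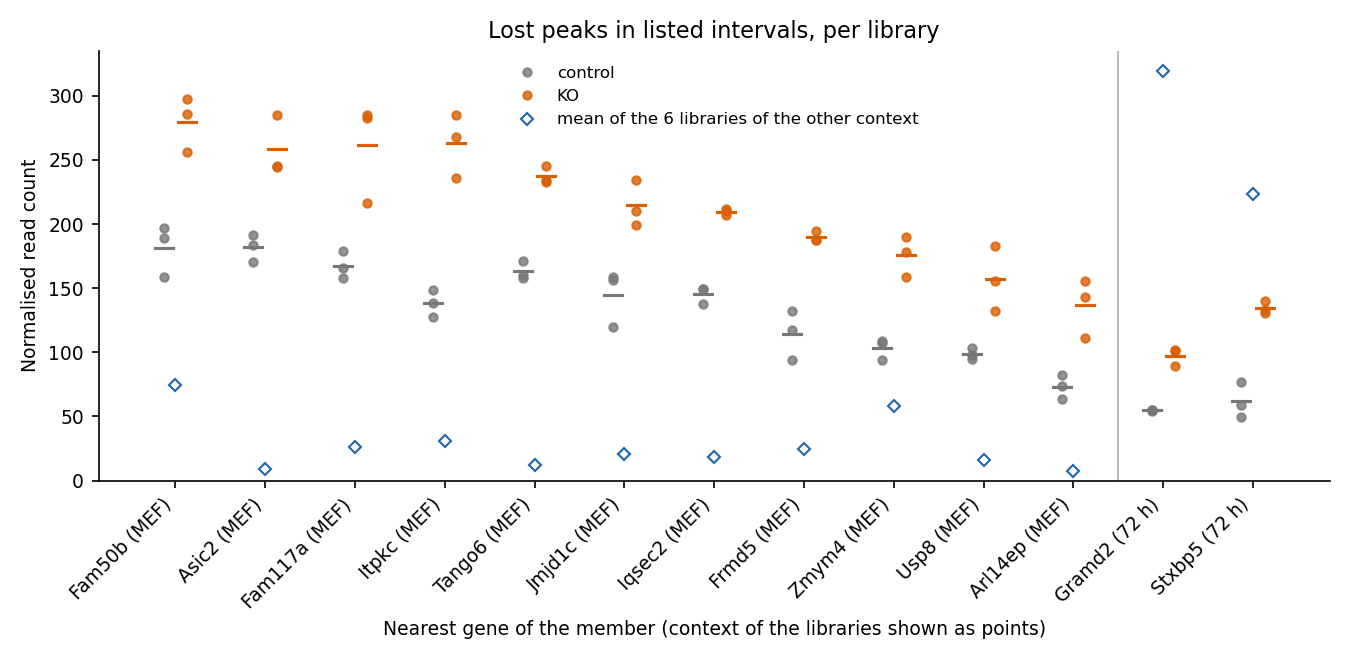
Normalised read counts of the 13 members in listed intervals, named by nearest gene, in 3 control and 3 KO libraries (points) with their means (bars); the diamond is the mean of the 6 libraries of the other context. On the authors' scaling KO points lie above control points in all 13, a direction that TMM factors over the list turned in the 11 MEF members and in 1 of the 2 at 72 h, and the 72 h means of the 11 members on the left, 7.43 to 74.7, lie below all their MEF points.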

How the data were processed

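Omni-ATAC-seq peaks and counts of 12 libraries were used, grouped by their titles. The authors aligned reads to GRCm38 with BWA. They filtered out mitochondrial reads, duplicates, blacklisted regions and improper pairs, and ran MACS2 in broad mode at a false discovery rate of 0.1. The deposited lists, 1 for each group, give each peak's fold over background, a ratio, and its -log10 q-value. The deposited tables of changed intervals give raw read counts per library, the same counts divided by DESeq2 size factors (a normalised signal), and their mean over 12 libraries. They also hold the authors' fold changes and p-values, which were not used.

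Overlaps needed 1 bp. Bases and masked repeats came from the GRCm38.p6 reference, and no repeat family was assigned. Shares have 95% Wilson intervals for counting error only. The mean of the other context was worked out from the mean over 12 libraries. Listed intervals were tested by edgeR 4.0.16 (quasi-likelihood, two-sided, KO against control, recovered size factors, Benjamini-Hochberg over 273256 intervals) in R 4.3.3, after a test on simulated data. DESeq2 1.42.0, other scalings, a filter on low counts, a replicate block and leaving out each library were alternatives. Within listed intervals the libraries held 33936 to 324141 reads, which is not the sequencing depth. The chi-square of counts between replicates, over its degrees of freedom, was 1.13 to 1.69, above counting noise. The labels do not say whether replicates were separate cultures, so p-values measure the spread between these libraries.

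The members, lists, motifs and naming rules were chosen with earlier results of these data known. Named were the 8 members with the highest fold, the 10 listed members with the highest MEF mean, the 8 genes with the most members, the 3 leading genes of each list and the peaks next to the minimum. Of the list genes, 2 older symbols of matrix genes were not found in the annotation. No sample column was left without a sample.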

Additional observations from a re-analysis of the deposited data

How the results depend on the processing

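The number of members was 17242 with a minimum fold of 4 and 871 with 7, and under the other settings stayed within 1.5 times of 7683. The share of members with the AP-1 string was 51.0% with a minimum fold of 4, 63.0% with 7, 55.2% with the minimum on the KO peak, 42.2% in the central 400 bp, 48.7% outside masked repeats and 7.18% for a 9-letter string with flanking A and T. It was above that of kept candidates in each of these, for example 7.18% against 5.41%. The settings added after the data were seen, members of 40% to 45% GC and members without a CTCF string, gave 55.2% and 54.0%. The share of candidates lost was 42.8% with a minimum fold of 4, 30.7% with 7, 34.8% without 72 h peaks within 1000 bp, 41.0% by the 72 h control list alone, 39.2% beyond 5 kb from starts, 39.7% with starts of all transcripts and 40.7% with narrow blocks of gapped peaks. The median log2 ratio of KO over control fold was -0.079 with a minimum fold of 7 and -0.0055 with the minimum on the KO peak. The share in introns was 40.5% with a minimum fold of 4, 34.0% with 7 and 46.7% with all annotated genes.

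Of the 11 listed MEF members, edgeR with TMM factors over the list, whose intervals nearly all have KO above control, called 6, all with KO below control. Without scaling it called 0, with 11 at an unadjusted p under 0.05. Of the 2 listed at 72 h, edgeR called 0 with TMM factors (0 at an unadjusted p under 0.05) and 0 without scaling (2 unadjusted). DESeq2 called 11 and 2. With each library left out in turn, 10 to 11 members were called in MEF and 2 at 72 h. The member near Usp8 was the one lost, without KO replicate 2 (adjusted p 0.0896). With a replicate block the calls were 11 and 2. Whether the shared numbers pair the samples could not be told. The correlations of same-numbered deviations were all positive and ran from 0.0368 to 0.214, and not all passed 0.1. In MEF not every library correlated best with its own number, at 72 h every one did. Depth within listed intervals limits only those counts, and depth of the peak lists is unknown.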
